A study of Rattus norvegicus with 18 samples.

Results

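The genes described here encode the subunits of voltage-gated sodium and calcium channels. They were chosen by name, as every gene whose rat symbol begins with Scn, a number and the letter a or b, or with Cacna, Cacnb or Cacng. RefSeq lists 40 such genes in the rat, and 39 of them were among the 16665 genes that could be named on the array. Testing was limited to the 35 that stood well above background on 5 or 6 of the arrays of some group. Hypothalamic RNA was taken from male Wistar rats at an age of 9 weeks, 18 animals in 3 groups of 6, with 1 array per rat. All rats were 5 weeks old at the start of the experiment. Control rats were not restrained and had no wheel. Rats of the stress group were restrained for 1 to 1.5 h on 5 days a week for 3 weeks. Rats with stress and exercise had the same restraint and ran freely in a wheel for 4 weeks, starting 1 week before the restraint. The title of the series places the work in the study of exercise, chronic stress and stress-induced hypertension. No group ran without restraint, so setting the exercised rats against control covers both interventions at once.

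Voltage-gated sodium channels open on depolarisation and carry the upstroke of the action potential. Their pore is an alpha subunit (the Scn genes ending in a), and beta subunits (ending in b) set gating and anchor the channel in the membrane. Voltage-gated calcium channels let calcium in during depolarisation and so couple firing to transmitter and hormone release, as in the hypothalamic neurons that secrete peptides. Their pore is an alpha1 subunit (Cacna1 genes), helped to the surface by alpha2delta (Cacna2d) and beta (Cacnb) subunits. The Cacng genes were named as calcium channel gamma subunits, but most of those expressed in brain encode TARPs, which carry AMPA-type glutamate receptors to synapses and slow their closing.

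Levels are log2 intensities relative to the 75th percentile of the same array, so 0 is that percentile. Probes differ in brightness, so a level can be set against other rats for the same probe but not against another gene. Between 63.6% and 77.7% of the 45598 probes stood well above background on an array, and that percentile corresponded to an intensity of 423 to 528. Of the 5 slides, the first 3 carried the control arrays with stress arrays 1 to 4, while the exercised rats were all on slides 4 and 5, together with stress arrays 5 and 6. The first principal component, with 31.7% of the variance, put slides 1 to 3 at -32.0 to -20.7 and slides 4 and 5 at 25.7 to 39.1. Stress arrays 5 and 6 thus stood with the exercised rats. Results are therefore also given with this slide set in the fit. The labelled tissue was checked with 13 markers of hypothalamic neurons, of which 12 could be tested, Avp, Oxt, Crh and Pomc among them, and Otp was not above background.

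Of the 35 tested channel genes, 31 were well above background on all 18 arrays. The tested sodium channel genes were 9 alpha and 4 beta subunits, and all of these but Scn4a, the skeletal muscle channel, were detected on every array. That includes Scn10a and Scn11a, best known from sensory neurons. Scn10a was dim, with a control mean of -4.50, near the lower end of the sodium alpha genes. The tested calcium channel genes were 9 alpha1, 3 alpha2delta and 4 beta subunits, and of these only Cacna1s, the alpha1 subunit of skeletal muscle, was missing on some arrays (well above background on 13 of 18). The 6 tested Cacng genes were all detected on every array but for Cacng4 (15 arrays) and Cacng5 (16 arrays). Mean levels in control rats ran from -4.71 to 3.21 over the sodium alpha genes and reached 5.62 over the sodium beta genes. They ran from -4.88 to 2.36 over the alpha1 genes, from -3.23 to 4.47 over alpha2delta, from -2.48 to 3.61 over the calcium beta genes and from -4.84 to 3.54 over the Cacng genes.

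The 4 genes that were measured but too dim to test were Cacna1f and Cacna2d4, both best known from photoreceptors, and Cacng1 and Cacng6, known from skeletal muscle. They were well above background on 3, 1, 8 and 2 of the 18 arrays in that order. Scn7a had no named probe and was not analysed here.

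Channel genes passed the limma test between stress with exercise and control, and in neither of the other comparisons. Scn4b rose 1.47-fold, the TARP genes Cacng3 and Cacng8 rose 1.25-fold and 1.20-fold, and the calcium beta genes Cacnb3 and Cacnb1 rose 1.17-fold and 1.11-fold. The T-type gene Cacna1i was 1.20-fold and the sodium alpha gene Scn2a 1.13-fold lower than in control. These 7 of 35 genes (20%) passed limma's test at an adjusted p under 0.05, where 28% of all 13051 tested genes passed, 18.1% higher and 9.84% lower, so channel genes were not called more often than genes at large. The median difference was 0.09 over the 35 genes and 0.05 over all genes, on the log2 scale, and 25 of 35 differences lay above 0 (62% of all genes). Without scaling between arrays 3 passed, 1 higher and 2 lower (12.9% of all genes). With slide as a random block 0 of the 35 passed (4.24% of all genes), and 0 once the slide set was a covariate.

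**Figure D1:**
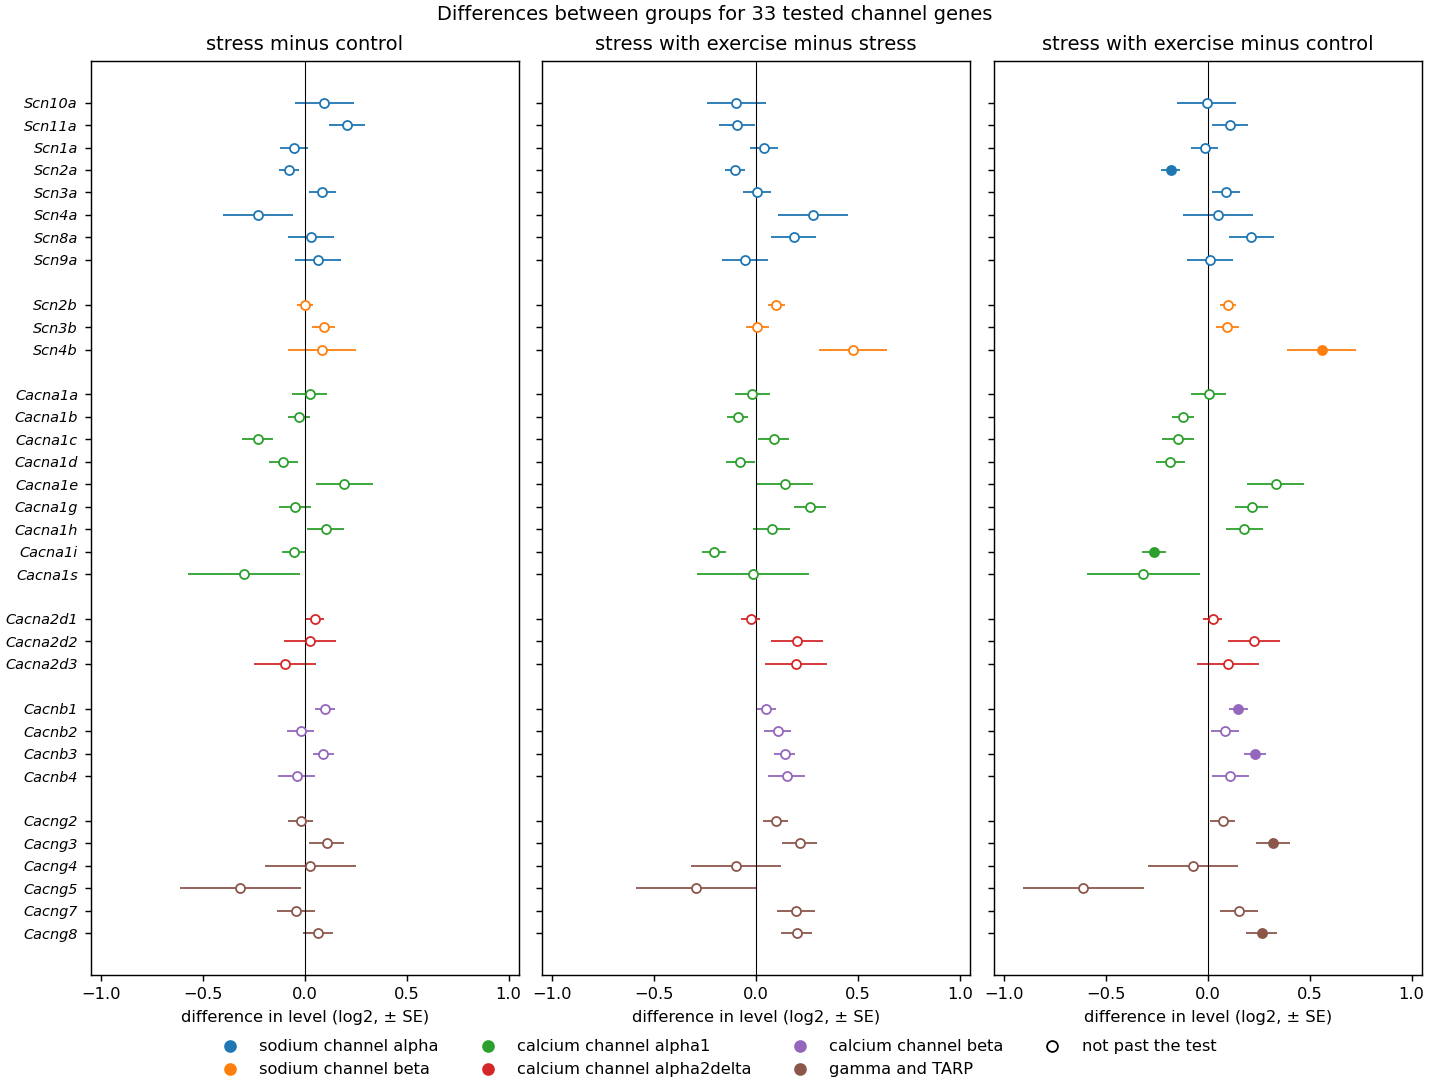
Difference in level between groups (x axis, log2, bars show the standard error of the fit) for 33 of the 35 tested channel genes, ordered by subfamily and coloured by it; filled points passed at an adjusted p under 0.05. Filled points appear in the right panel alone, 5 above 0 and 2 below, and the widest bars belong to dim genes such as Cacng5 and Cacna1s.

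Among the sodium channel alpha genes, 1 of 9 passed. Scn2a, the alpha subunit placed at the axon initial segment of excitatory neurons and in unmyelinated axons, had a lowest, median and highest level of 3.12, 3.18 and 3.31 in control. In stress these were 3.06, 3.12 and 3.21, and in stress with exercise 2.90, 3.02 and 3.18. All 6 exercised rats lay below the control mean, but the groups overlapped through exercised rat 2, at 3.18. The difference was -0.18 (SE 0.05, adjusted p = 0.0105, limma). A second probe of Scn2a had a difference of opposite sign that did not pass. The neuronal alpha genes Scn1a (difference -0.01), Scn3a (0.09) and Scn8a (0.21, adjusted p = 0.17) did not pass. Nor did Scn9a (0.01).

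All 4 sodium beta genes had a mean above control, and 1 passed. Scn4b encodes a beta subunit that is joined to the alpha subunit by a disulphide bond and is tied to resurgent sodium current. Its lowest, median and highest levels were 0.28, 0.73 and 0.96 in control, 0.08, 0.89 and 1.08 in stress, and 0.93, 1.24 and 1.58 in stress with exercise. Exercised rats 2 and 5, at 0.95 and 0.93, reached into the control range and the other exercised rats lay above it. The difference was 0.56 (SE 0.17, adjusted p = 0.0205, limma). This gene also had the widest spread of the 7 called genes, with an SD of 0.38 in stress (n = 6). Scn2b (difference 0.10, adjusted p = 0.0722) and Scn3b (0.10, adjusted p = 0.228) did not pass.

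Among the 9 alpha1 genes 1 passed. Cacna1i encodes a T-type pore, which opens near resting potential and supports burst firing. Its lowest, median and highest levels were 1.61, 1.72 and 1.84 in control, 1.49, 1.69 and 1.79 in stress, and 1.33, 1.47 and 1.57 in stress with exercise. Every exercised rat lay below every control rat. The difference was -0.26 (SE 0.06, adjusted p = 0.00396, limma), and a second probe gave -0.16 (SE 0.05, adjusted p = 0.0178, limma), also with no overlap. The other T-type genes had positive differences that did not pass: Cacna1g 0.22 (adjusted p = 0.053) and Cacna1h 0.18 (adjusted p = 0.154). Of the high-voltage-activated genes, the L-type genes Cacna1c and Cacna1d were at -0.15 and -0.18, the N-type gene Cacna1b at -0.12, the P/Q-type gene Cacna1a at 0.01 and the R-type gene Cacna1e at 0.33. None of these 5 passed, and their adjusted p ranged from 0.0638 for Cacna1d to 0.973 for Cacna1a.

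None of the 3 alpha2delta genes passed by its brightest probe. Cacna2d1, the first-described of these subunits and a binding site of gabapentin, was at 4.47 ± 0.08 in control and 4.50 ± 0.06 in stress with exercise (SD, n = 6 each). Cacna2d2 differed by 0.23 and Cacna2d3 by 0.10, with adjusted p of 0.207 and 0.667.

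Of the 4 calcium beta genes, which encode the cytoplasmic subunit that brings alpha1 to the membrane, 2 passed. Cacnb3 had levels of 3.53, 3.58 and 3.73 (lowest, median, highest) in control. They were 3.55, 3.66 and 3.84 in stress and 3.76, 3.86 and 3.87 in stress with exercise. Every exercised rat lay above every control rat, and stress arrays 5 and 6, at 3.84 and 3.83, lay inside the exercised range. The difference was 0.23 (SE 0.05, adjusted p = 0.00401, limma). Cacnb1, the beta subunit of skeletal muscle that brain also makes, had levels of 3.40, 3.44 and 3.50 in control, 3.42, 3.55 and 3.65 in stress, and 3.47, 3.59 and 3.70 in stress with exercise. All 6 exercised rats were above the control mean, with overlap at exercised rat 2. The difference was 0.15 (SE 0.05, adjusted p = 0.0275, limma), and the adjusted p rose to between 0.0537 and 0.0653 when control 1, control 2 or exercised rat 5 or 6 was left out. Cacnb2 (0.08) and Cacnb4 (0.11) did not pass.

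Of the 6 Cacng genes 2 passed, both of them TARPs of the first type, which act on AMPA receptor trafficking. Cacng3 had levels of -1.04, -0.96 and -0.93 in control, -1.21, -0.78 and -0.63 in stress, and -0.77, -0.68 and -0.41 in stress with exercise. Control and exercised rats did not overlap, while stress rats spread across both ranges. The difference was 0.32 (SE 0.09, adjusted p = 0.0109, limma). Cacng8 had levels of -1.89, -1.78 and -1.57 in control, -2.01, -1.64 and -1.52 in stress, and -1.59, -1.50 and -1.38 in stress with exercise. All 6 exercised rats were above the control mean, and control rat 4 reached the exercised range. The difference was 0.26 (SE 0.07, adjusted p = 0.0149, limma). Cacng2, the stargazin gene, differed by 0.07, and the second-type TARP gene Cacng7 by 0.15 (adjusted p = 0.238). Cacng5, another second-type TARP, had the largest absolute difference of all 35 genes in this comparison, -0.61 (SE 0.30), and did not pass (adjusted p = 0.14). Cacna1i, Cacnb3 and Cacng3 were thus the 3 genes of 35 with no overlap between control and stress with exercise, against 18.6% of all tested genes.

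**Figure D2:**
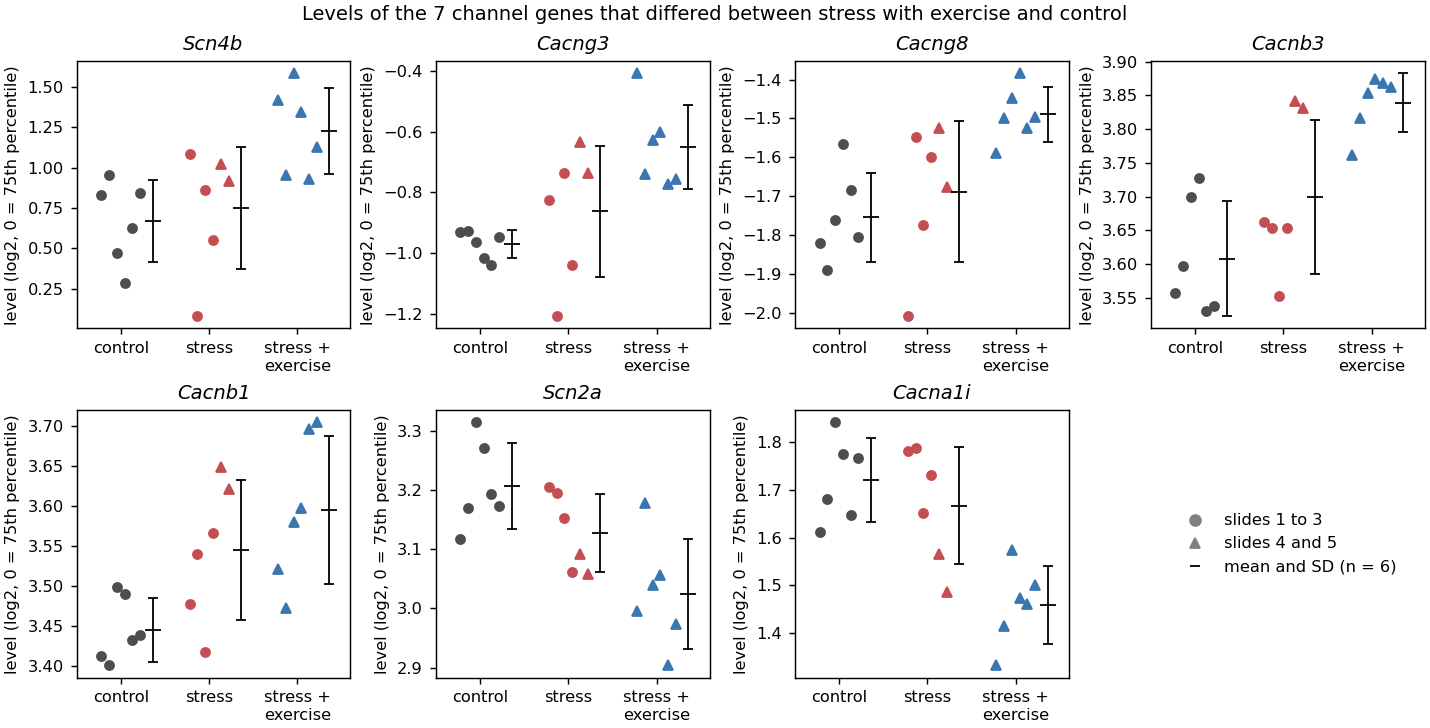
Level on each array (y axis, log2, 0 is the array's 75th percentile) of the 7 channel genes called between stress with exercise and control; circles are arrays of slides 1 to 3, triangles arrays of slides 4 and 5, and the bar is the mean with its SD over 6 rats. The stress triangles, arrays 5 and 6, sit at 3.84 and 3.83 for Cacnb3, inside the exercised range, and the axes differ between panels.

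The sequences before the start sites of 3 of these genes are shown because Cacnb3 and Cacng3 rose and Scn2a, by its brightest probe, fell in the same comparison. Each is the 250 bases before the annotated start from RefSeq, build GRCr8, written 5′ to 3′ on the gene's strand, with matches to GGGCGG or its reverse complement CCGCCC (a GC box) in capitals.
Cacnb3 (chr7:131666301-131666550, plus strand): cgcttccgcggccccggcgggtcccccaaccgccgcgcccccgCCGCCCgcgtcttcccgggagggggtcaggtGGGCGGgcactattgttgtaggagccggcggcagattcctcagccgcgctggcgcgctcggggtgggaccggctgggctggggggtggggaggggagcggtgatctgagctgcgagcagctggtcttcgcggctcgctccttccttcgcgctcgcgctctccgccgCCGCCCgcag
Cacng3 (chr1:186632312-186632561, plus strand): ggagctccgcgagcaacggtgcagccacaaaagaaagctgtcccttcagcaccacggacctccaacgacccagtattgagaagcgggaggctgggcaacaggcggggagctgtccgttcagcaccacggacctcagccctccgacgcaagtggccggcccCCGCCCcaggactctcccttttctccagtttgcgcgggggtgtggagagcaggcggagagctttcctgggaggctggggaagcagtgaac
Scn2a (chr3:70710706-70710955, plus strand): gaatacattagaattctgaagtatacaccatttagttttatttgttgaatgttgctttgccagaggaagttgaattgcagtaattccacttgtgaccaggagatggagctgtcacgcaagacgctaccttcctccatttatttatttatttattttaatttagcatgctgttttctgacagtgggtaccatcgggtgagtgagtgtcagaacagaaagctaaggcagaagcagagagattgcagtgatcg
The GC content was 76.4% for Cacnb3, 64.8% for Cacng3 and 39.6% for Scn2a, and these windows held 3, 1 and 0 GC boxes. The windows of Cacng8 (64.8% GC) and Scn4b (71.6% GC), which also rose, held 0. The motif TATAAA, read on both strands, was in 0 of these 5 windows. Over all 33469 windows given, 30.5% held a GC box and 12.9% held TATAAA, and the median GC content was 51.2%. There were 29 windows for 26 of the channel genes, with a median GC content of 63.2%, a GC box in 14 and TATAAA in 2. Cacna1i and Cacnb1 were not among them. A match of letters describes the window and says nothing of binding.

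The comparison of stress and control addresses restraint without running. None of the 35 passed the limma test, and 0% of all 13051 genes did. The median difference was 0.02 for the channel genes and 0.02 for all genes, with 20 of 35 above 0 (56.8% of all genes). An unadjusted p under 0.05 was reached by Cacna1c and Scn11a, 2 of 35, against 12.2% of all genes.

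Cacna1c encodes the main L-type pore of brain and cardiovascular tissue. Its level was -0.91, -0.75 and -0.60 (lowest, median, highest) in control, -1.07, -1.01 and -0.91 in stress, and -1.27, -0.89 and -0.70 in stress with exercise. Every stress rat lay below every control rat, though the nearest pair were both at -0.91, and the exercised rats overlapped with both groups. It was the one member whose stress and control groups did not overlap, where 1.04% of all genes had no overlap. The difference was -0.23 (SE 0.08), with an adjusted p of 0.308 in the limma fit. Within slides 1 to 3, with 4 stress rats, it was -0.27 (adjusted p = 0.315, limma). A second, dimmer probe of Cacna1c gave -0.02.

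The other genes with the smallest p in each direction did not pass either. Scn11a, a persistent-current sodium channel of sensory neurons, differed by 0.21 (SE 0.09, adjusted p = 0.388), Cacnb1 by 0.10 and Cacnb3 by 0.09. Cacna1d differed by -0.11 and Scn2a by -0.08. All 6 stress rats had a Scn11a level over the control mean, with overlap between the groups.

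Stress with exercise against stress asks what running added to restraint. None of the 35 genes passed, where 3.27% of all genes did. At an unadjusted p under 0.05 there were 10 of 35 genes, 8 higher and 2 lower, against 25.2% of all genes. The median difference was 0.08 for channel genes and 0.03 for all genes, and 22 of 35 lay above 0 (60.7% of all genes). With the slide set as a covariate 0 of the 35 passed (lowest adjusted p = 0.758, limma), and 1 of all 13051 genes did. The median difference was then -0.03 for channel genes and -0.004 for all genes, with 16 of 35 above 0 (48.2% of all genes). That fit compares the exercised rats with the stress rats that shared slides 4 and 5 with them.

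Cacna1i came nearest, with a difference of -0.21 (SE 0.06, adjusted p = 0.0556, limma), and all 6 exercised rats were below the stress mean. Its second probe gave a smaller difference of the same sign, -0.10 (SE 0.05, adjusted p = 0.232, limma). Cacna1g, the T-type pore best known from thalamic relay neurons, had levels of -0.12, 0.17 and 0.34 in stress against 0.24, 0.44 and 0.61 with exercise, and 0.06, 0.21 and 0.34 in control. All 6 exercised rats were above the stress mean, with overlap, and the difference was 0.26 (SE 0.08, adjusted p = 0.064, limma). The mean level of 9 thalamic markers ran over 0.68 to 1.63 in stress, 1.02 to 1.95 with exercise and 0.89 to 1.94 in control (10 of the 12 listed had a probe and Synpo2 was not above background), and its part in the level of Cacna1g was not tested. Scn4b differed by 0.47 (SE 0.17, adjusted p = 0.0994) and Cacnb3 by 0.14 (SE 0.05, adjusted p = 0.113). Scn2a and Cacna1b, the N-type pore of presynaptic terminals, differed by -0.10 and -0.09 and did not pass. With the slide set as a covariate the difference became -0.07 for Cacna1i (SE 0.07), 0.11 for Cacna1g (SE 0.10) and 0.26 for Scn4b (SE 0.23). It became 0.003 for Cacnb3 (SE 0.06), -0.05 for Scn2a (SE 0.07) and -0.16 for Cacna1b (SE 0.07).

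Leaving out stress arrays 5 and 6, an alternative chosen after the values were seen, moved this count from 0 to 8 of 35, 7 higher and 1 lower (26.5% of all genes). The genes that then rose were Scn4b (0.58), Cacna1g (0.34), Cacng7 (0.32), Cacng3 (0.30), Cacng8 (0.24), Cacnb3 (0.21) and Scn2b (0.14), and Cacna1i fell by 0.28. In that fit all stress arrays lay on slide 3 and all exercised arrays on slides 4 and 5, so that exercise and slide set cannot be told apart. With stress array 5 alone left out 4 of 35 passed (14.6% of all genes), and with stress array 6 alone left out 3 did (13.4% of all genes).

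Several of these genes differed between slides inside the stress group. Slides 3 and 4 were scanned on different days, so slide and scan day cannot be told apart in this contrast. Stress arrays 5 and 6 on slide 4 were set against stress arrays 1 to 4 on slide 3, rats of the same treatment. By the brightest probe 3 of 35 channel genes passed, all higher on slide 4, against 16.5% of all genes. They were Cacng7 (0.38, adjusted p = 0.0206), Scn3a (0.25, adjusted p = 0.0476) and Cacnb3 (0.21, adjusted p = 0.0243). For Cacnb3 the difference between stress with exercise and control was 0.23. Cacna1i differed by -0.21 between these slides (adjusted p = 0.0501), Scn4b by 0.32, Cacng3 by 0.27, Cacng8 by 0.13, Cacnb1 by 0.13 and Scn2a by -0.08, each in the direction of its call. These 6 did not pass by the brightest probe. The second probes of Cacna1i and Cacna1b did pass, both lower on slide 4. They were at -0.18 (adjusted p = 0.0361, limma) and -0.40 (adjusted p = 0.00171, limma).

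With the slide set as a covariate the difference between stress with exercise and control became 0.24 for Scn4b (SE 0.30), 0.13 for Cacng8 (SE 0.13), 0.06 for Cacng3 (SE 0.14), 0.03 for Cacnb3 (SE 0.07) and 0.02 for Cacnb1 (SE 0.08). It became -0.10 for Scn2a (SE 0.08) and -0.05 for Cacna1i (SE 0.09). The sign was kept by all 7 called genes and by 20 of the 35 tested genes. The median absolute difference over the 35 genes went from 0.15 to 0.09, and the median SE from 0.09 to 0.14. The lowest adjusted p was 0.493, and 0.00766% of all genes passed. Only the stress arrays lie on both slide sets, so this fit rests on 2 arrays against 4. Those 2 were scanned on another day than those 4. Each difference in this fit is the one from group alone less the difference between slides among stress rats given above. These values are therefore not a separate check from that contrast.

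**Figure D3:**
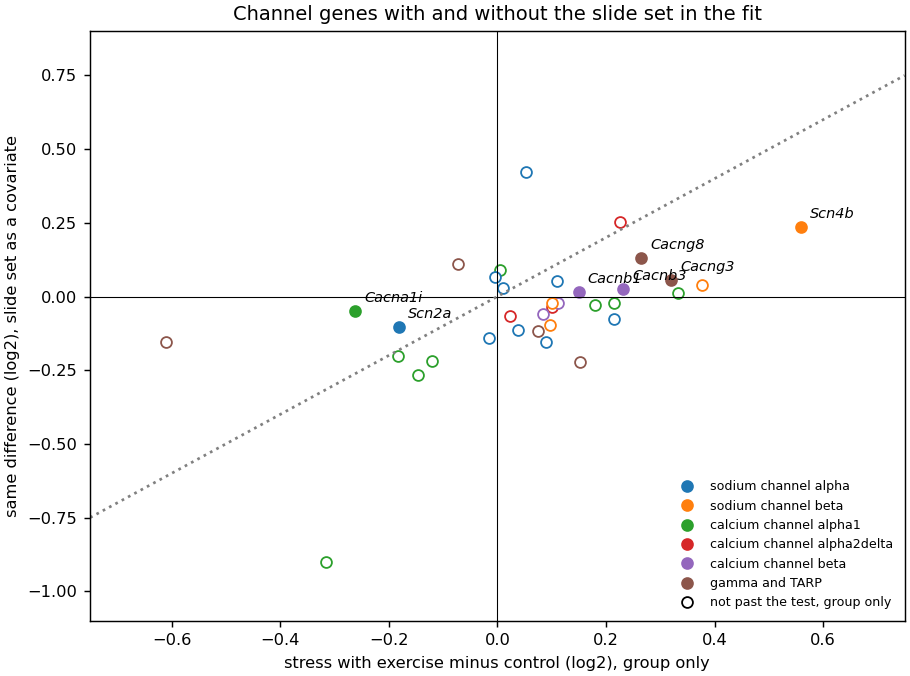
Difference between stress with exercise and control (log2) for each of the 35 tested channel genes, fitted with group alone (x axis) and after adding the slide set to the fit (y axis); the dotted line marks equal values and filled points passed with group alone. The 7 filled points lie nearer 0 on the y axis than on the x axis, Scn4b at 0.56 and 0.24 and Cacnb3 at 0.23 and 0.03.

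Scan day, the other division in the file headers, holds slides 2 and 4 on day 1 and slides 1, 3 and 5 on day 2. With scan day as a block 10 of 35 genes passed between stress with exercise and control, the 7 named above with Scn2b, Scn3b and Cacna1h, all 3 of them higher (34% of all genes). Within day 1, with 4 control and 2 exercised rats, 5 passed (17.3% of all genes), among them Cacna1i, Cacna1b and Cacna1d, which were lower, and Cacng3, which was higher. Within day 2, with 2 control and 4 exercised rats, 6 passed (18% of all genes): Cacnb1, Cacnb3, Cacng8 and Cacna1h higher, and Cacna1c and Cacna1s lower. Cacna1s was near background, standing well above it on 3 of 6 exercised and 5 of 6 control arrays. The 2 control rats of that day, at -4.21 and -4.39, had the highest levels of Cacna1s among all 18. The signs of the 7 called genes were the same within both days, but on each day the control rats were on slides 1 to 3 and the exercised rats on slides 4 and 5, so within a day exercise and slide set cannot be told apart. Between stress with exercise and stress, 1 gene passed with scan day as a block, Cacna1i (9.21% of all genes). None passed within day 1 and 9 within day 2 (24.5% of all genes), 7 higher and 2 lower, Cacna1i and Scn2a being the lower ones. Between stress and control 1 gene passed within day 1, Scn3a, which was higher (10.6% of all genes), with the stress rats on slide 4 and the control rats on slide 2, and none within day 2.

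Different probes of a gene sit on different stretches of its transcripts, and 11 channel genes had at least 2 tested probes. For Scn2a the brightest probe gave -0.18 between stress with exercise and control, and the second gave 0.09 (SE 0.05, adjusted p = 0.247). The second probe was at 2.54, 2.65 and 2.69 in control, 2.46, 2.64 and 2.75 in stress, and 2.62, 2.70 and 2.84 in stress with exercise. The difference between both probes on the same array ran from 0.46 to 0.67 in control and from 0.13 to 0.39 in stress with exercise, with no overlap. In stress it ran from 0.46 to 0.73 on slide 3 and was 0.32 and 0.35 on slide 4. An exact two-sided permutation test of this difference gave p = 0.00216 between stress with exercise and control, the smallest 6 against 6 rats allow. After adjustment over 33 such tests it was 0.0536, and 0 passed. Control and exercised rats lay on different slide sets, so exercise and slide set cannot be told apart in this test.

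The probes of Cacna2d1 and Scn3a also gave different values. For Cacna2d1 the brightest probe differed by 0.02 and the second by 0.17 (SE 0.04, adjusted p = 0.00707, limma), with no overlap in the second. For Scn3a the brightest probe was at 0.09 and the second at -0.11 (adjusted p = 0.0723). The difference between both Scn3a probes ran from 1.75 to 1.92 in stress on slide 3 and was 2.08 and 2.18 on slide 4. For Cacna2d1 it ran from 1.84 to 2.01 in stress on slide 3 and was 1.88 and 1.93 on slide 4. Between stress with exercise and control the exact permutation p for the change in the probe difference was 0.00649 for Cacna2d1 and for Scn3a (n = 6 per group), 0.0536 adjusted. For Cacna1i the probe difference ran from 0.07 to 0.16 in stress and from -0.09 to 0.08 in stress with exercise. The exact permutation p between these 2 groups was 0.00433, 0.0536 adjusted. Cacnb1 had 3 tested probes, at 0.15, 0.11 (adjusted p = 0.0717) and 0.23 (adjusted p = 0.00373), all in the same direction. In Cacna1b the second probe was 0.40 lower on slide 4 than on slide 3 among stress rats and passed. The brightest probe was 0.10 higher and did not pass. Which transcript each probe reads was not analysed here.

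**Figure D4:**
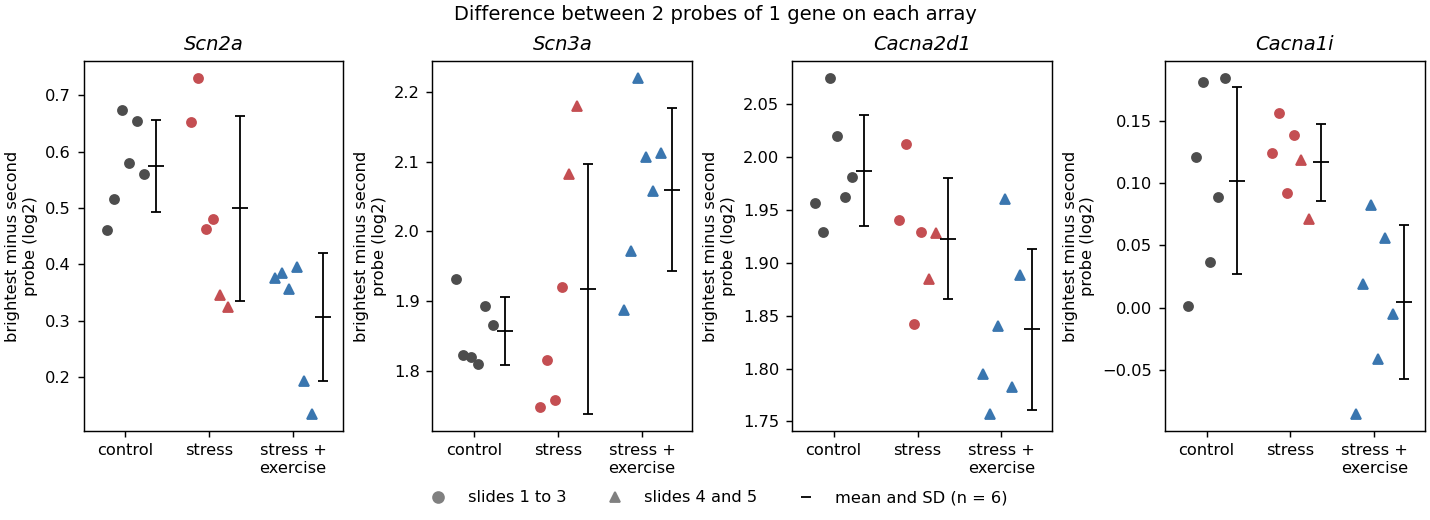
Level of the brightest probe minus the second probe of the same gene on each array (y axis, log2) for Scn2a, Scn3a, Cacna2d1 and Cacna1i; circles are slides 1 to 3, triangles slides 4 and 5, bars the mean with SD over 6 rats. For Scn2a the 8 triangles sit at or below 0.39 and the 10 circles at or above 0.46.

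Partners of the channels were looked at by list in the same comparisons. Between stress with exercise and control, 3 of 11 tested sodium channel partners passed, among them Unc79 (0.36), part of the sodium leak channel complex, and Sptbn4 (0.24), the spectrin of the axon initial segment. Of 21 calcium channel partners 7 passed, 3 higher and 4 lower, among them Kcnma1 (-0.35), the calcium-activated BK potassium channel, and Ncs1 (0.33) and Cabp1 (0.25), both calcium sensors. Of 12 AMPA receptor partners 4 passed: Cpt1c (0.29) and Shisa7 (0.26), both constituents of AMPA receptor complexes, and the postsynaptic scaffold Dlg4 (0.21) were higher, and the receptor subunit Gria4 (-0.13) was lower. In the other comparisons 0 partners passed on any of the 3 lists. The shares of 27.3%, 33.3% and 33.3% stand beside the 28% of all genes. Among stress rats alone, slide 4 minus slide 3 was -0.43 for Kcnma1, 0.42 for Ncs1, 0.34 for Cabp1, 0.29 for Cpt1c and 0.26 for Sptbn4, each at least as large as the difference between stress with exercise and control. It was 0.25 for Unc79, 0.14 for Shisa7 and Dlg4, and -0.04 for Gria4. With the slide set as a covariate 1 of all 13051 genes passed.

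Scn4b is abundant in the projection neurons of the striatum, which lies close to the dissected tissue. Of 12 striatal markers 11 were tested, all on every array, Drd1, Drd2, Adora2a and Ppp1r1b among them, and only Gpr6 was not above background. Their mean level ran over 0.66 to 0.80 in control, 0.70 to 1.06 in stress and 0.86 to 1.35 in stress with exercise, and 5 of 11 were higher in the last group than in control (18.1% of all genes), in the fit without the slide set. Among stress rats it was 0.70 to 1.06 on slide 3 and 0.92 to 0.94 on slide 4. Between stress with exercise and control this mean differed by 0.33 and Scn4b by 0.56. The rat with the lowest Scn4b, stress rat 2 at 0.08, had a striatal mean of 0.70, and exercised rats 1 and 3, at 1.42 and 1.58, had 1.35 and 1.17. Other rats did not follow this order. Control rats 3 and 5 had striatal means of 0.66 and 0.67, below stress rat 2, with Scn4b at 0.47 and 0.63. Control rat 2 and exercised rat 2 had striatal means of 0.77 and 0.87, with Scn4b near 0.95 in both. General neuron markers had a mean of 3.20 in control, 3.21 in stress and 3.33 in stress with exercise, with 4 of 10 higher in the last than in control (18.1% of all genes). Within stress the neuron mean was 3.05 to 3.22 on slide 3 and 3.31 to 3.33 on slide 4, with no overlap. Cortical and hippocampal markers had means of -1.17, -1.21 and -1.14, with Slc17a7 and Tbr1 not above background. Skeletal muscle markers had means of -2.49, -2.74 and -2.78, with Myh4 and Myl1 not above background. Whether these markers bear on the channel genes was not tested, and in bulk tissue more cells of a type and more RNA per cell cannot be told apart.

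**Figure D5:**
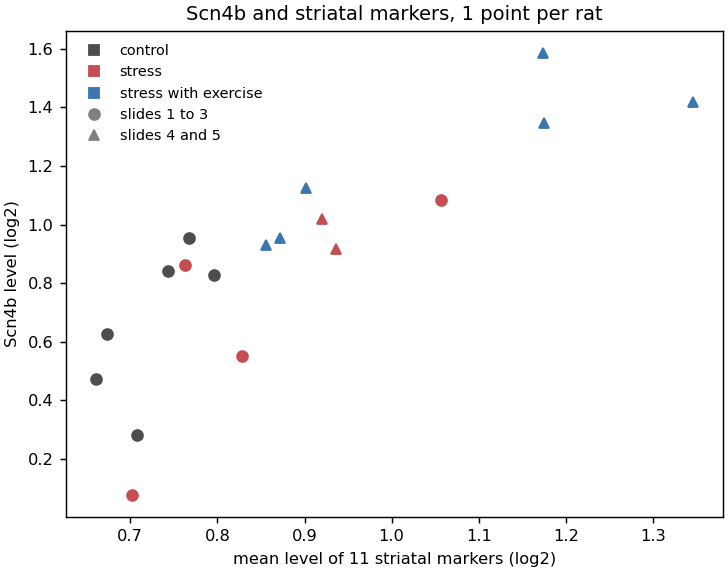
Level of Scn4b (y axis, log2) against the mean level of 11 striatal markers (x axis, log2), 1 point per rat, coloured by group and shaped by slide set. The 6 control rats lie between 0.66 and 0.80 on the x axis, and the 3 exercised rats furthest to the right, at 1.17 to 1.35, have the 3 highest Scn4b levels.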

How the data were processed

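Total RNA from each hypothalamus was labelled with Cy3 and hybridised to 1-colour rat arrays, per the labels' protocols. The deposited intensity of a spot had been corrected for background by Agilent Feature Extraction (12.1.0.3 per the file headers, 9.1 per the submitters' processing notes). The authors' series matrix holds intensity equal to that signal times 1 constant per array, 1.02 to 1.24. The basis of this constant was not stated.

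From there, control and outlier spots were left out, spots of 1 probe were averaged, and log2 of the signal minus the array's 75th percentile was taken. Probes were named through their transcript accession in RefSeq (GRCr8): 21220 of 45598 probes matched 1 symbol and 24378 none. Testing needed a probe to stand well above background on 5 or 6 arrays of some group, and 31293 probes for 13051 genes met this. The brightest tested probe stood for a gene. limma 3.58.1 in R 4.3.3 (lmFit, eBayes) was fitted to the 18 arrays with only group in the model. Adjusted p-values are Benjamini-Hochberg values over all tested probes, two-sided, called under 0.05, and the fit was tested on simulated data. Those data held no slide effect, so that test does not cover the division by slide. Standard errors are those of the fit. The labels say that each array is 1 rat.

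The channel genes, the partner and marker lists and the tests were chosen with earlier results of these data known. The rule named each member that passed in any comparison, or, where none passed, the 3 members with the smallest p in each direction, and up to 4 partners per list that passed; some of these genes are not reported here. Slide, slide set and scan day come from the file headers, and control and stress arrays never shared a slide. The files hold no mean signal, so the normexp alternative used the median signal. The number of arrays limits the precision.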

Additional observations from a re-analysis of the deposited data

How the results depend on the processing

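No channel gene passed between stress and control under any alternative but 1: within scan day 1, 1 gene passed, Scn3a, higher (10.6% of all genes). With scan day as a block 139 of all 13051 genes passed. Under the other alternatives at most 2 of all genes did, so a count of 0 there says little about channel genes. Between stress with exercise and stress, where 0 had passed, 1 passed with normexp background correction, with no scaling between arrays, with the authors' series matrix, with only probes well above background on all 18 arrays, and with scan day as a block, and each time it was Cacna1i, lower. Of all 13051 genes, 290 passed higher and 342 lower with normexp, and 12 higher and 360 lower with no scaling. With the series matrix these were 169 and 286, and with scan day as a block 603 and 599. With only probes well above background on all 18 arrays they were 323 and 300 of 12028 genes, beside 1 of 31 channel genes. Within scan day 2, 9 passed (24.5% of all genes), and without the stress arrays of slide 4, 8 passed (26.5% of all genes). Between stress with exercise and control, where 7 had passed, 3 passed with no scaling and 0 with slide as a random block or with the slide set as a covariate. Leaving out 1 rat at a time gave 0 to 0, 0 to 4 and 6 to 9 genes in these comparisons, where 0 to 1, 0 to 1900 and 3163 to 3824 of all 13051 genes passed. Over all genes, no scaling turned the split of calls between stress with exercise and control from 2366 higher and 1284 lower into 405 higher and 1285 lower.

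For the named genes, 584 of 639 alternative values stayed on the same side of the threshold with the same sign, 33 lost and 19 gained the call, and 3 changed sign, none of them called. These were Scn2a between stress and control within scan day 2 (0.010), and within scan day 1, between stress with exercise and stress, Cacnb3 (-0.048) and Scn2a (0.012). Part of this tally was fixed in advance. Leaving out an exercised rat, for example, left the size of each difference between stress and control as it was. For results not called to begin with, the same side means still not called. Scn2a between stress with exercise and control also lost its call when the mean of its probes was taken (-0.05). The causes were not tested. A replicate block left the counts at 0, 0 and 7, while the counts over all genes went from 0, 427 and 3650 to 0, 0 and 3099. No pairing of rats by replicate number was seen. Correlations of same-numbered arrays ran from -0.25 to 0.19, and 0 of 18 arrays correlated best with its own number. Slide was not removed from these correlations, so they cannot exclude a pairing. Dim genes were among the least precise: Cacng5 and Cacna1s had standard errors of 0.30 and 0.28.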
